A study of Mus musculus with 60 samples.

Results

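Gene expression in the regenerating mouse liver was compared between 24 hours and 6 hours after partial hepatectomy (PHX). All genes with at least 1 FPKM (fragments per kilobase of transcript, scaled to the depth of the library) in 3 or more of the 6 PHX-6h and PHX-24h samples were taken, which gave 9879 of the 17475 rows of the liver table. Of these genes, 8732 reached 1 FPKM in all 6 samples and 386 in exactly 3, while 321 rows reached it in exactly 2 and were left out. PHX-6h and PHX-24h held 3 samples each, 6 of the 60 samples of the study. Both groups were whole liver RNA from wild-type C57BL/6 mice (C57BL/6J in the study's methods) of 8 to 10 weeks after removal of 2/3 of the liver, with no genetic change and no other agent. They differed in the time after the operation, and no sham-operated liver was among the samples used here. Untreated liver (Normal liver, 3 samples) gives a reference level for single genes. The sources used here do not say that the 3 samples of a group came from separate animals, so each p-value measures the spread between these samples. They also do not give the time of day at which the livers were taken. In whole tissue, fewer cells of a type and less RNA per cell cannot be told apart.

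After partial hepatectomy the hepatocytes that remain leave the resting state, pass G1 and copy their DNA before they divide, while the liver goes on serving the body. The first hours are known for a priming phase, in which immediate early genes and IL6-STAT3 signaling are switched on and acute phase proteins are made. The first round of DNA synthesis in mouse hepatocytes usually comes after the first day, so both times studied here come before its usual peak.

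The 3 PHX-24h samples had fewer reads on genes than the 3 PHX-6h samples, 52072853 to 55439267 against 62891182 to 79251975, as recovered from the FPKM steps. Log2 expression correlated at 0.973 to 0.987 within PHX-6h, at 0.970 to 0.987 within PHX-24h and at 0.915 to 0.960 between the groups, across the 9879 genes. PHX-24h-1 stood apart from the other PHX-24h samples. On the first principal component of the 18 liver samples, which held 40.0% of the variance, it lay at 8.63, against 34.9 and 40.5 for the other two, 43.3 to 51.7 for PHX-6h and -30.0 to -24.9 for Normal liver. Calls of named genes that were lost without PHX-24h-1 are given as such beside them. The summed FPKM of 7 hepatocyte markers (Alb, Apoa1, Ttr, Serpina1a, Fgb, Cyp2e1, Cps1) was 51632 to 58977 at 6 hours and 38506 to 44303 at 24 hours, so the tissue carried the defining genes of liver at both times. Each of the markers of T and NK cells, B cells and fat cells in the table was below 1 FPKM in all 6 samples.

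From 6 to 24 hours, 567 genes rose (5.74% of the 9879) and 167 fell (1.69%), with an adjusted p below 0.05 in limma and a difference of 2-fold or more on the log2(FPKM + 1) scale. On that scale the median difference of all genes was 0.25, with quartiles at -0.04 and 0.54. This shift depends on the scaling: the median was 0.01 after quantile normalization and -0.06 with trimmed mean of M values factors on the recovered reads. Rises made up 77.3% of the calls as deposited, 52.3% after quantile normalization (277 higher, 253 lower) and 49.5% on the recovered reads (465 higher, 474 lower). Of the calls, 242 rises (2.45% of the genes) and 153 falls (1.55%) held under both other scalings, and none turned its direction under either. All 3 PHX-24h samples lay above all 3 PHX-6h samples for 41.6% of the genes and below them for 9.36%. Of the 9879 genes, 4792 had an unadjusted p under 0.05 in limma. At an adjusted p below 0.05 and any fold, 3323 were higher and 546 lower. The counts given for each gene list are read against these values.

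**Figure D1:**
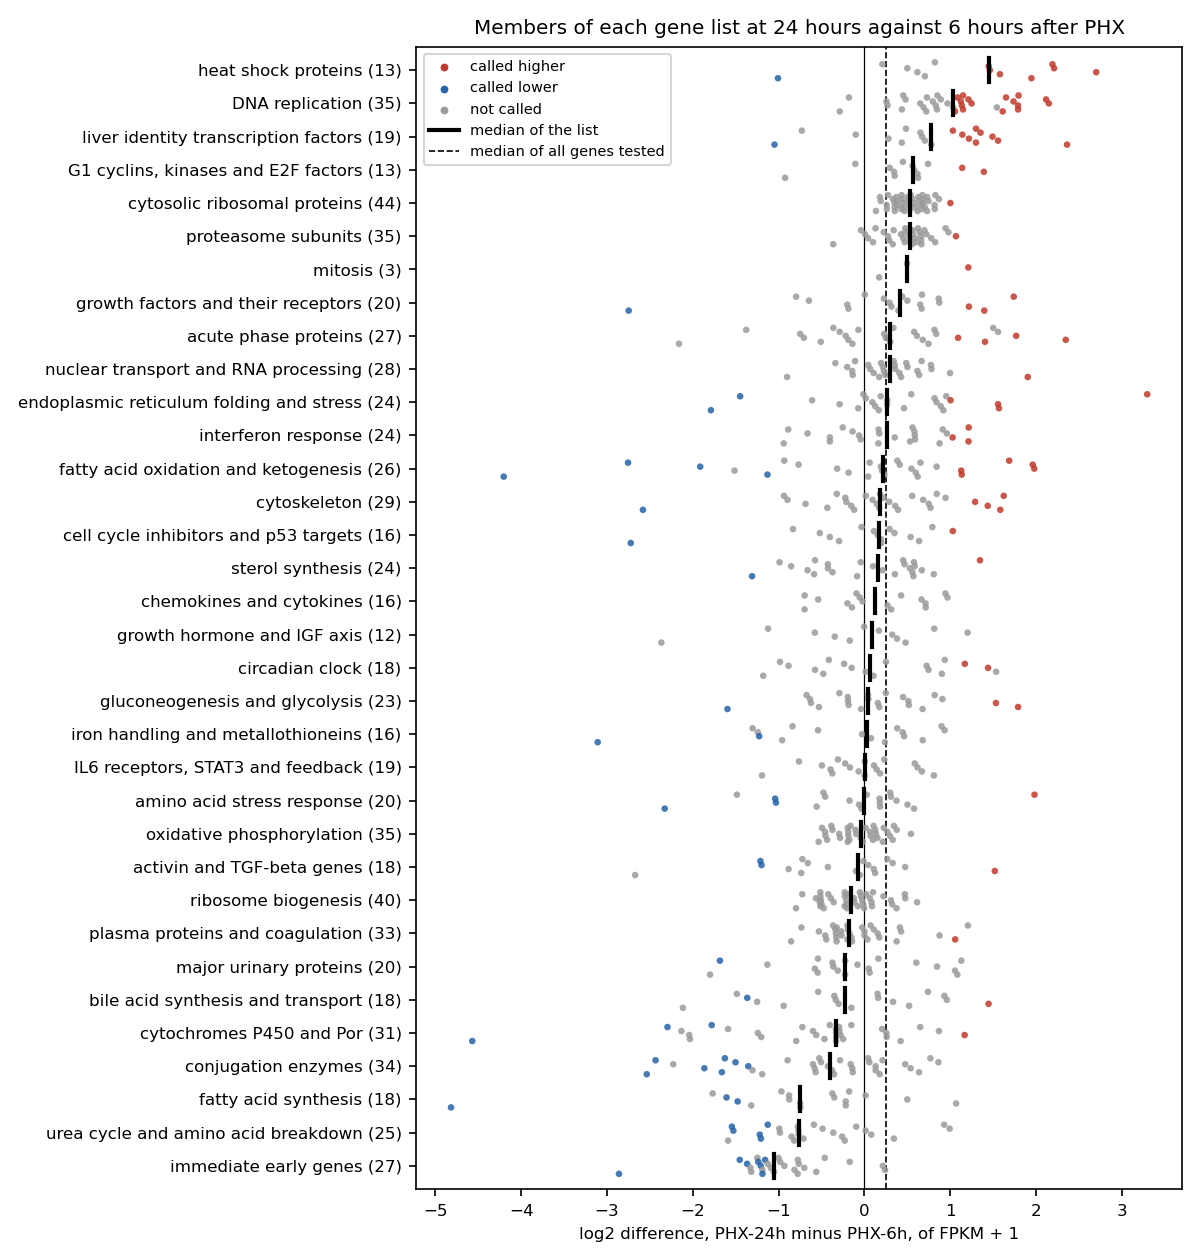
Each point is 1 gene of a list, with its log2 difference in FPKM + 1 (PHX-24h minus PHX-6h) on the x axis and the lists on the y axis with the number of genes tested in parentheses; red and blue points passed the test and the black bars are list medians. Of the lists drawn, which leave out the cell type markers and lists with fewer than 3 genes tested, heat shock proteins had the highest median (1.45) and immediate early genes the lowest (-1.05), while the median of all 9879 genes, the dashed line, was 0.25.

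Genes of DNA replication were higher at 24 hours. The list held 51 genes for the licensing helicase, the polymerases, their clamp and the supply of nucleotides. Without any filter, 17 of the 51 rose, against 3.4% of the 16455 genes with reads, and all 3 PHX-24h samples lay above all 3 PHX-6h samples for 32 of them, against 32.5%. With the filter 35 were tested, 8 of which passed it only through the PHX-24h samples. Those 8 (Mcm2, Mcm5, Mcm6, Gins2, Rfc4, Prim1, Prim2 and Dna2) had to be higher at 24 hours. The 16 calls are therefore no share of the list. They included Mcm2, Mcm5, Mcm6, Mcm7, Gins1, Gins2, Rfc2, Rfc3, Rfc4, Rfc5, Prim1, Prim2, Rrm1, Dna2 and Gmnn. Of these calls, 8 held under both other scalings. PHX-24h-1 was the highest PHX-24h sample for 50 of the 51 genes. Without it 10 of the tested genes were called, and without PHX-24h-2 22 were.

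The promoters of the pair of Mcm genes with the largest rises are shown because both hold a sequence that E2F factors, the transcription factors of the G1/S transition, are known to bind. The 200 bases before the RefSeq start (GRCm38.p6) are printed on the strand of the gene, for Mcm5 chr8:75109309-75109508 (plus strand) and for Mcm6 chr1:128359706-128359905 (minus strand), with matches to TTTCCCGC, TTTGGCGC or TTTCGCGC on either strand in capitals.
Mcm5: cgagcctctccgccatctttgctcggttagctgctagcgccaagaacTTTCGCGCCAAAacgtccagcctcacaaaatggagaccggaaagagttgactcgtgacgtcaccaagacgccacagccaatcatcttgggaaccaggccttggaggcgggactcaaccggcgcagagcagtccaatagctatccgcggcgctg
Mcm6: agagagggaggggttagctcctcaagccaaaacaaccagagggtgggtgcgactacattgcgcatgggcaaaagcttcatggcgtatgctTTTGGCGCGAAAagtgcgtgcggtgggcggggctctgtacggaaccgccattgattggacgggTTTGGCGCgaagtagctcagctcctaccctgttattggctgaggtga
In Mcm5 the capitals are 2 overlapping matches, 153 and 149 bases before the start, and in Mcm6 there were matches at 110, 106 and 47 bases. The letters occurred in 606 of all 32851 promoter windows of 300 bases, or 1.84%, and in 18 of the 41 genes of the list with a window. They were in 4 of the 10 called genes, in 2 of the 17 tested genes that were not called and in 12 of the 14 genes that did not pass the filter.

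Mcm5, a subunit of the replicative helicase, was at 0.276, 0.631 and 0.376 FPKM at 6 hours and at 13.2, 3.11 and 3.29 FPKM at 24 hours. Mcm5, like Mcm6, was below 1 FPKM in every PHX-6h sample and passed the filter only through PHX-24h. Direction and lack of overlap of both genes thus follow from the filter. PHX-24h-1 was at the top, and Mcm5 rose by 2.15 ± 0.36 (log2 difference ± SE, n = 3 and 3, adjusted p = 0.000478). Without PHX-24h-1 the difference was 1.56 (adjusted p = 0.000554). Mcm6, another subunit of the same ring, had 0.900, 0.991 and 0.709 FPKM at 6 hours and 18.02, 3.62 and 4.98 FPKM at 24 hours. This rise was 2.12 ± 0.40 (adjusted p = 0.00101), and 1.497 without PHX-24h-1. For Gins1, part of the complex that activates the helicase, the values were 1.13, 1.29 and 1.77 FPKM at 6 hours and 10.2, 6.23 and 5.97 FPKM at 24 hours. Its groups did not overlap, and the rise was 1.79 ± 0.20 (adjusted p = 2.77e-05). Normal liver held 1.69 ± 0.392 FPKM of Mcm5, 2.88 ± 0.146 FPKM of Mcm6 and 4.87 ± 0.469 FPKM of Gins1 (mean ± SD, n = 3). Levels at 6 hours were thus under those of Normal liver for these 3 genes. The polymerase clamp Pcna had 25.1, 21.2 and 20.9 FPKM at 6 hours and 55.0, 27.7 and 31.9 FPKM at 24 hours. Its groups did not overlap, but the difference of 0.69 ± 0.23 (adjusted p = 0.0251) was under 2-fold. Rrm2, the limiting subunit of ribonucleotide reductase, overlapped between the times (1.09, 1.20 and 1.82 FPKM against 10.8, 1.54 and 2.70 FPKM) and did not pass the test (adjusted p = 0.0777).

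**Figure D2:**
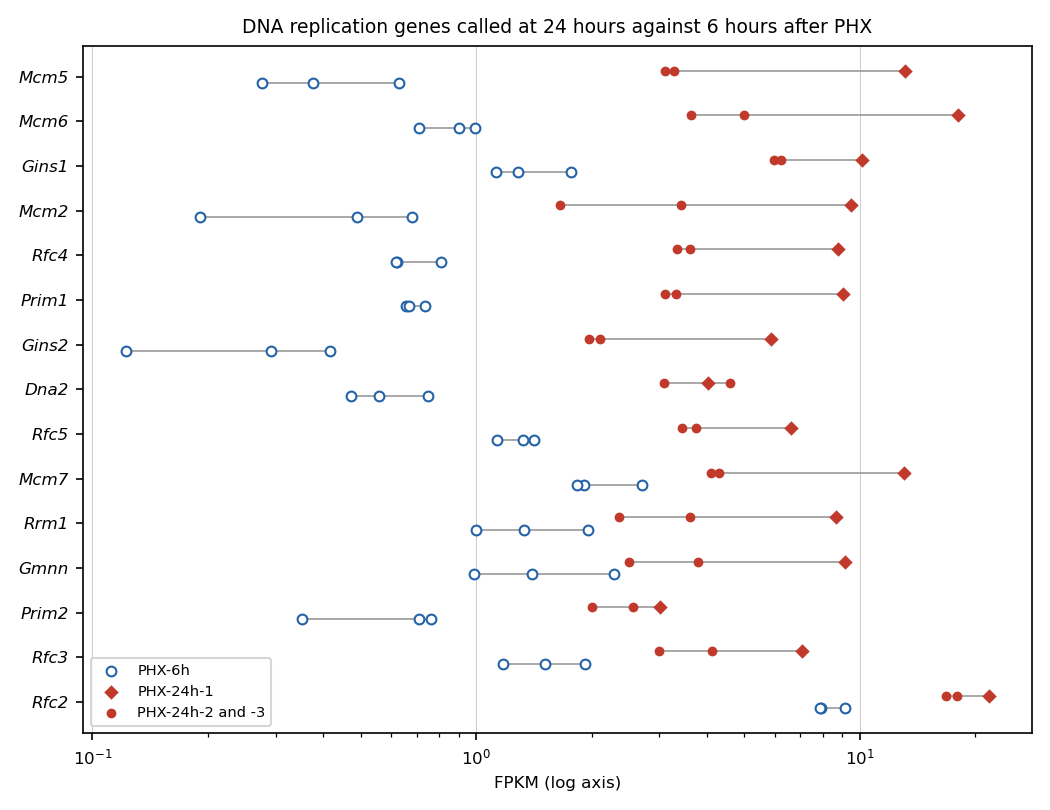
FPKM (log axis) of 15 of the 16 DNA replication genes that passed the test, 1 row a gene, with open circles for the 3 PHX-6h samples, red circles for PHX-24h-2 and PHX-24h-3 and diamonds for PHX-24h-1. Every PHX-24h point lies to the right of every PHX-6h point in each row, and PHX-24h-1 lies farthest right in all rows but that of Dna2. In 8 rows (Mcm2, Mcm5, Mcm6, Gins2, Rfc4, Prim1, Prim2 and Dna2) this separation follows from the filter, which these genes passed only through PHX-24h.

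Mitotic genes were mostly below the filter. Of 42 genes of the spindle, the kinetochore and the mitotic kinases, 39 did not pass the filter, and the highest value of any of these in the 6 samples was 2.77 FPKM, for Aurka. Without any filter 1 of the 42 was called higher, against 3.4% of the 16455 genes with reads, and 13 had all PHX-24h samples above all PHX-6h samples, against 32.5%. Mki67, a general marker of cycling cells, was at 0.0371, 0.161 and 0.0334 FPKM at 6 hours and at 0.694, 0.0967 and 0.292 FPKM at 24 hours, which overlap. In PHX-D3, 3 days after PHX, it was at 5.04 ± 3.16 FPKM (n = 3). Mad2l1, a spindle checkpoint protein, was the mitotic gene that rose (1.21 ± 0.25, adjusted p = 0.00184), and its call was lost without PHX-24h-1. Foxm1, a driver of mitotic transcription that the study followed up with Barx2, Elf3 and Mxd3, was listed at no more than 0.242 FPKM in any of the 6 samples. Barx2, Mxd3 and Elf3 did not reach the filter either, with top values of 0.258, 0.294 and 1.01 FPKM.

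Among the regulators of G1, Ccnd1, cyclin D1, had 4.05, 4.78 and 4.93 FPKM at 6 hours and 17.1, 4.72 and 16.8 FPKM at 24 hours. PHX-24h-2 lay within the PHX-6h range, so the groups overlapped. Ccnd1 rose by 1.14 ± 0.34 (adjusted p = 0.0158), but the call did not hold under either other scaling and was lost when PHX-24h-1, PHX-24h-3 or PHX-6h-1 was left out. E2f8 was the other of 13 tested G1 genes that rose (1.39 ± 0.51, adjusted p = 0.0429), on 0.597, 0.671 and 5.46 FPKM at 6 hours and 6.97, 6.23 and 4.39 FPKM at 24 hours, and its call was lost when any of 5 of the 6 samples, PHX-24h-1 among them, was left out. Without any filter 2 of the 19 genes of the list rose, against 3.4% of the 16455 genes with reads. All PHX-24h samples lay above all PHX-6h samples for 9 of the 19, against 32.5%. PHX-24h-1 was the highest PHX-24h sample for all 19. E2f1, left out by the filter, was called there (0.353, 0.138 and 0.211 against 4.785, 0.996 and 1.27 FPKM). Its call was not tested without PHX-24h-1.

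The cell cycle inhibitor Cdkn1a (p21), which blocks cyclin-dependent kinases, moved the other way. It was at 176, 153 and 199.5 FPKM at 6 hours and at 5.90, 70.9 and 37.3 FPKM at 24 hours. All 3 samples were lower at 24 hours, the lowest being PHX-24h-1, and Cdkn1a fell by 2.72 ± 0.68 on the log2 scale (adjusted p = 0.00586). Without PHX-24h-1 it fell by 1.75 (adjusted p = 0.025). The 24-hour mean of 38.0 ± 32.5 FPKM stood beside 1.60 ± 0.755 FPKM in Normal liver. Ccng1, a p53 target, was the single gene of the 16 tested inhibitors and p53 targets that rose (12.9 ± 2.21 to 27.1 ± 0.799 FPKM, 1.03 ± 0.19, adjusted p = 0.000769), and that call did not hold under either other scaling or without PHX-6h-1.

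Immediate early genes, the transcription factors and signaling regulators that respond to a stimulus without new protein synthesis, were lower at 24 hours. Of 27 tested genes, 7 fell (Btg2, Sgk1, Klf6, Ctgf, Rhob, Dusp1 and Gadd45b), the calls held under both other scalings, and 17 had all PHX-24h samples below all PHX-6h samples. The median of the list was -1.05, or -1.30 relative to that of all genes. The number of falls was 2 without PHX-24h-1 and 4 without PHX-24h-3 or PHX-6h-1, so single samples decided several calls. Sgk1 (-1.45, and -1.20 without PHX-24h-1) and Klf6 (-1.37, and -0.92) were among those lost without it. On the recovered reads 12 of the list were called lower. With only the 6 samples in the fit, 13 were called lower and 0 higher, against 191 and 571 of all genes. Btg2, an antiproliferative gene, had 210.2, 97.1 and 99.5 FPKM at 6 hours and 7.64, 33.5 and 17.3 FPKM at 24 hours, a fall of 2.86 ± 0.66 on the log2 scale (adjusted p = 0.00355). The groups were far apart, and this call held in every alternative tried. The AP-1 subunit Jun, at 28.0, 23.4 and 25.8 FPKM and then 8.72, 12.6 and 11.1 FPKM, did not overlap between the times but missed the threshold (-1.19 ± 0.48, adjusted p = 0.0604). Its partner Fos (9.53, 7.40 and 5.16 against 1.40, 3.35 and 2.35 FPKM, adjusted p = 0.173) and the growth regulator Myc (12.5, 7.59 and 3.66 against 2.34, 2.78 and 1.70 FPKM, adjusted p = 0.0754) also had every PHX-24h sample below every PHX-6h sample without passing. Egr1 overlapped, with 81.5, 48.0 and 30.5 FPKM at 6 hours and 14.2, 31.2 and 25.9 FPKM at 24 hours.

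Genes of ribosomes and proteasomes showed small differences. Cytosolic ribosomal protein genes had a median of 0.53 (0.28 above that of all genes), with all PHX-24h samples above all PHX-6h samples for 39 of 44. Single changes were small, and the 1 call was Rpl30 (184, 145 and 126 FPKM at 6 hours and 213, 381 and 334 FPKM at 24 hours), which sat at the 2-fold limit, was lost when any of 4 samples was left out and did not hold under either other scaling. The 40 ribosome biogenesis genes, nucleolar factors that process and assemble ribosomal RNA, had a median of -0.16, or -0.41 relative to that of all genes. Of these genes, 34 lay below the median of all genes and 6 above it. No gene of that list passed in limma, and 4 were called lower on the recovered reads. At an unadjusted p under 0.05, 5 were higher and 13 lower, against 4792 of all 9879 genes in either direction. With an adjusted p below 0.05 at any fold, 4 were higher and 8 lower, against 3323 and 546 of all genes. Nop56, a core box C/D protein, was at 10.8, 10.7 and 10.5 FPKM at 6 hours and 15.6, 6.97 and 10.3 FPKM at 24 hours, which overlap. Proteasome subunits had a median of 0.53, with 29 of 35 higher and without overlap, and 1 of them passed, Psma1 (57.3 ± 7.86 to 120.3 ± 3.53 FPKM, adjusted p = 1.93e-05), a call lost on the recovered reads and without PHX-6h-1. These small shifts move with the scaling: the ribosomal protein median was 0.46 after quantile normalization and 0.18 on the recovered reads. The ribosome biogenesis median was -0.37 and -0.53 under these scalings, below the 0.01 and -0.06 of all genes.

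Heat shock genes, which encode chaperones and their helpers, were mostly higher at 24 hours. Among 13 tested, all cytosolic but for the mitochondrial chaperonins Hspd1 and Hspe1, 7 rose (Hsph1, Hspa4l, Hsp90aa1, Hspb1, Dnaja1, Hsp90ab1 and Hspa1b) and 1 fell (Bag3). The list median was 1.45, or 1.20 above that of all genes, and 6 rises and the fall held under both other scalings. Bag3 lay at the 2-fold limit (-1.01 ± 0.25) and lost its call without PHX-24h-2, PHX-6h-2 or PHX-6h-3. Hsph1, a nucleotide exchange factor of the Hsp70 system, was at 5.24, 6.87 and 6.79 FPKM at 6 hours and at 74.99, 41.8 and 31.3 FPKM at 24 hours, rising by 2.70 ± 0.35 (adjusted p = 9.59e-05). Its relative Hspa4l had 2.02, 2.17 and 2.00 FPKM and then 16.2, 11.3 and 12.4 FPKM, a rise of 2.21 ± 0.12 (adjusted p = 8.06e-08). The inducible cytosolic Hsp90 gene Hsp90aa1 had 104, 101 and 134 FPKM and then 701, 457 and 427 FPKM, a rise of 2.19 ± 0.20 (adjusted p = 9.8e-06). None of these 3 genes overlapped between the times, and they were called in every alternative. In Normal liver they were at 9.68 ± 1.66, 3.46 ± 0.392 and 77.4 ± 4.66 FPKM. PHX-24h-1 was the highest PHX-24h sample for 12 of the 14 heat shock genes of the list, and 6 rises were called without it. The Hsp70 genes Hspa1a and Hspa1b are near-identical, so the value of Hspa1b (1.42 ± 0.734 to 5.46 ± 1.32 FPKM, adjusted p = 0.0263) is uncertain, and its call was lost under both other scalings and without PHX-24h-1, PHX-24h-3 or PHX-6h-1.

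In the endoplasmic reticulum, 4 of 24 folding and stress genes rose (Derl3, Pdia6, Sdf2l1 and Pdia3) and 2 fell (Herpud1 and Dnajb9), around a list median of 0.26 that was close to that of all genes. In all, 3 of the rises and both falls held under both other scalings, Pdia3 lay at the 2-fold limit (1.0024), and leaving out 1 sample gave 3 to 7 rises, 3 without PHX-24h-1, PHX-24h-2 or PHX-6h-1 and 7 without PHX-24h-3. The promoters of 3 genes of this list are shown: those of Pdia6 and Derl3, which rose, and that of Hspa5, the main chaperone of the compartment, which did not pass. Each holds the endoplasmic reticulum stress element, the letters CCAAT and CCACG with 9 bases between them on either strand, which are in capitals. The 200 bases before the RefSeq start (GRCm38.p6) are given for Pdia6 chr12:17266389-17266588, Derl3 chr10:75893198-75893397 and Hspa5 chr2:34771890-34772089, all on the plus strand.
Pdia6: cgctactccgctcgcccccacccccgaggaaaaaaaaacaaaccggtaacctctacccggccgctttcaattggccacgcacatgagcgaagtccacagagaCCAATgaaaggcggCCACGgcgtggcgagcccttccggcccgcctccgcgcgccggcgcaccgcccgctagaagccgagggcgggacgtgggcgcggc
Derl3: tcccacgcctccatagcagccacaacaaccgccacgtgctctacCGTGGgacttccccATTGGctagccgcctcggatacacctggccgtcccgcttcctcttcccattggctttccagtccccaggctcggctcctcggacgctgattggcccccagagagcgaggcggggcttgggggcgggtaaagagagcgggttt
Hspa5: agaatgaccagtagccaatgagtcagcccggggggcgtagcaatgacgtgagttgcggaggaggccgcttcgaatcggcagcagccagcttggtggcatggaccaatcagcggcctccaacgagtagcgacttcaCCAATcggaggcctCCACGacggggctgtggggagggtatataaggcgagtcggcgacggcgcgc
The first base of the match lay 98 bases before the start in Pdia6, 156 in Derl3 (on the other strand) and 65 in Hspa5. The element occurred in 39 of 32851 windows, or 0.119%, and in 10 of the 22 list genes with a window. It was present in 2 of the 4 genes that rose, in 0 of the 2 that fell and in 7 of 14 genes that were not called. Of the 2 remaining genes, Ero1l and Ero1lb, also tested and not called, 1 held it (Ero1lb, named Ero1b among the windows).

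Pdia6, a disulfide isomerase, was at 124, 145 and 129 FPKM at 6 hours and at 413, 421 and 353 FPKM at 24 hours. The samples of each time lay close together, and Pdia6 rose by 1.57 ± 0.18 (adjusted p = 3.09e-05). Derl3, part of the channel that returns misfolded proteins to the cytosol, was at 0.474, 1.47 and 1.10 FPKM and then at 47.4, 28.6 and 4.04 FPKM. Its rise of 3.29 ± 0.72 (adjusted p = 0.00254) was the second largest of all rises, with a wide spread at 24 hours. Hspa5 (BiP) showed no such rise, with 502, 719.6 and 779.7 FPKM at 6 hours and 572, 536 and 504 FPKM at 24 hours (-0.29 ± 0.22, adjusted p = 0.32). Herpud1, a membrane component of degradation from this compartment, fell by 1.79 ± 0.23 on the log2 scale (152, 268 and 271 against 55.7, 70.7 and 65.5 FPKM, adjusted p = 8.02e-05). The co-chaperone Dnajb9 fell by 1.45 ± 0.26 (116, 139.5 and 169 against 37.8, 58.7 and 58.3 FPKM, adjusted p = 0.000656). Neither gene overlapped between the times. Xbp1, a transcription factor of the unfolded protein response, was at 249 ± 15.7 FPKM and 251 ± 17.0 FPKM, a difference of 0.01 ± 0.22.

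**Figure D3:**
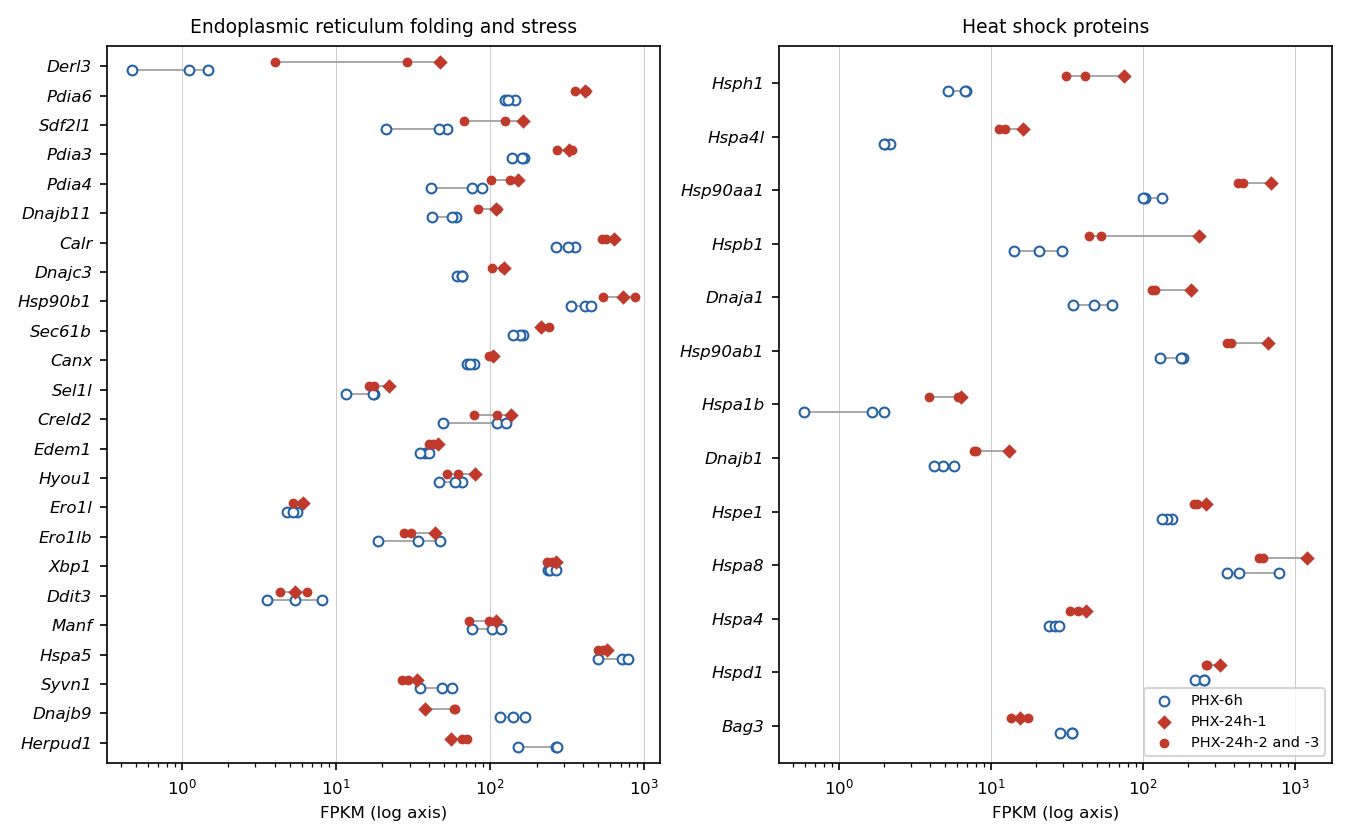
FPKM (log axis) of each tested endoplasmic reticulum gene (left) and heat shock gene (right), 1 row a gene in the order of its log2 difference, with open circles for PHX-6h, red circles for PHX-24h-2 and PHX-24h-3 and diamonds for PHX-24h-1. Derl3, Pdia6 and Hsph1 lie to the right at 24 hours and Herpud1, Dnajb9 and Bag3 to the left, without overlap.

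Among 20 tested targets of the amino acid stress response, 1 rose and 3 fell. Atf5, a transcription factor of this response, was at 34.3, 53.7 and 72.4 FPKM at 6 hours and at 163, 258 and 204 FPKM at 24 hours, a rise of 1.98 ± 0.31 (adjusted p = 0.000331). The glutathione-degrading enzyme Chac1 had 11.1, 6.01 and 17.8 FPKM and then 0.171, 3.61 and 1.34 FPKM, and fell by 2.33 ± 0.58 (adjusted p = 0.00547). These genes of 1 response thus moved in opposite directions, each without overlap. Slc38a2 and Cth also fell, just past the 2-fold limit (by 1.03 ± 0.23 and 1.04 ± 0.32 on the log2 scale, adjusted p = 0.00273 and 0.0179), and both calls were lost when any of 3 samples was left out, PHX-24h-1 among them for Slc38a2. Atf4, the master regulator of the response, was at 80.9 ± 6.71 FPKM and 54.7 ± 4.54 FPKM (adjusted p = 0.0603).

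Of the acute phase genes, a few rose from 6 to 24 hours. Of 27 tested, 4 rose (Saa3, Fgl1, Apcs and Crp), 16 differences were positive and 11 negative, from -2.16 to 2.34, the median was 0.30, and 1 of the 4 rises, Fgl1, held under both other scalings. Fgl1, a secreted hepatocyte protein, was at 674, 1076 and 976 FPKM at 6 hours and at 2863, 3586 and 2728 FPKM at 24 hours, a rise of 1.77 ± 0.26 (adjusted p = 0.000216). In Normal liver it was at 409 ± 67.7 FPKM. Apcs, serum amyloid P, went from 590.5 ± 171 FPKM to 1552 ± 408 FPKM without overlap (1.40 ± 0.36, adjusted p = 0.00683). Saa3 was carried by single samples, with 33.9, 41.3 and 308 FPKM at 6 hours and 209.9, 1571 and 179.6 FPKM at 24 hours, and its call was lost without PHX-24h-2, PHX-6h-1 or PHX-6h-2. Saa1 had 6734, 7834 and 6649 FPKM and then 11182, 15344 and 11149 FPKM (adjusted p = 0.292), against 116 ± 71.4 FPKM in Normal liver. Lcn2, an iron-sequestering protein, was at 3173 ± 434 FPKM and 4175 ± 1467 FPKM (adjusted p = 0.732), against 5.34 ± 2.07 FPKM in Normal liver. Summed markers of neutrophils, which also make Lcn2, were at 44.3 to 45.7 FPKM at 6 hours and 10.2 to 83.7 FPKM at 24 hours, 3 of the 8 being below 1 FPKM in all 6 samples. Their part in these values was not tested.

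No gene of the 19 tested for IL6 receptors, STAT3 and its feedback passed in limma, and 1 was called lower on the recovered reads. At an unadjusted p under 0.05, 3 were higher and 3 lower, against 4792 of all 9879 genes in either direction. With an adjusted p below 0.05 at any fold, 3 were higher and 2 lower, against 3323 and 546 of all genes. Stat3 itself was at 97.9, 67.3 and 74.4 FPKM at 6 hours and at 45.3, 66.8 and 56.9 FPKM at 24 hours. Every PHX-24h sample was lower, but the difference of -0.50 ± 0.17 (adjusted p = 0.0303) was under 2-fold. Socs3, the feedback inhibitor that STAT3 induces, overlapped, with 52.97, 34.9 and 41.5 FPKM and then 21.9, 44.4 and 48.7 FPKM (adjusted p = 0.811). In Normal liver Socs3 was at 4.66 ± 1.51 FPKM and Stat3 at 24.6 ± 2.29 FPKM. Il6 was listed at no more than 0.159 FPKM in any of the 6 samples.

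Genes of fatty acid synthesis were lower at 24 hours. Of 18 tested, 3 fell (Thrsp, Acly and Fasn), all 3 also under both other scalings, 9 did not overlap and were lower, and the list median was -0.75 (-1.0 relative to all genes). On the recovered reads 8 were called lower. Thrsp, a nuclear protein that tracks lipogenesis, was at 723, 566 and 571 FPKM at 6 hours and at 55.8, 8.71 and 18.025 FPKM at 24 hours. It fell by 4.82 ± 0.77 (adjusted p = 0.000348). Acly, which makes cytosolic acetyl-CoA, had 106, 45.8 and 36.1 FPKM and then 26.8, 11.7 and 17.5 FPKM, and fell by 1.61 ± 0.38 (adjusted p = 0.00388). Fatty acid synthase (Fasn) had 52.3, 26.8 and 16.0 FPKM and then 15.9, 6.81 and 7.85 FPKM, so that PHX-24h-1 lay just under PHX-6h-3. Its fall of 1.48 ± 0.45 (adjusted p = 0.0168) was lost without PHX-24h-2, PHX-24h-3 or PHX-6h-1. The desaturase Scd1 did not pass (678 ± 275 against 196 ± 75.8 FPKM, adjusted p = 0.0663). Of 24 sterol genes, Stard4, a sterol carrier, rose (1.35 ± 0.37, adjusted p = 0.0103, a call lost without PHX-24h-1) and Pmvk, a kinase of the mevalonate pathway, fell by 1.31 ± 0.32 (adjusted p = 0.00542, a call lost without PHX-6h-1).

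Fatty acid oxidation and ketogenesis genes moved both ways, 5 of 26 rising and 4 falling, and 1 rise and 2 falls held under both other scalings. Vnn1, a pantetheinase, was at 8.89, 8.92 and 18.4 FPKM at 6 hours and at 38.0, 55.6 and 51.8 FPKM at 24 hours, a rise of 1.98 ± 0.32 (adjusted p = 0.000412). The fatty acid hydroxylases Cyp4a14 (177 ± 73.2 to 659 ± 44.6 FPKM) and Cyp4a10 (103 ± 39.4 to 320.3 ± 40.4 FPKM) rose by 1.96 ± 0.50 and 1.69 ± 0.50 (adjusted p = 0.00626 and 0.0155). Both Cyp4a calls were lost on the recovered reads, that of Cyp4a10 also without PHX-6h-1. Pdk4, which turns pyruvate away from oxidation, fell from 309, 110.3 and 198 FPKM to 1.03, 45.8 and 10.6 FPKM. The fall of 4.20 ± 1.18 (adjusted p = 0.0112) was 3.03 without PHX-24h-1 and then did not pass (adjusted p = 0.0661). Acot2, a mitochondrial acyl-CoA thioesterase with a close paralog in Acot1, fell from 86.8, 56.2 and 35.5 FPKM to 2.05, 8.44 and 19.7 FPKM (by 2.75 ± 0.56, adjusted p = 0.00173). Plin2, the coat protein of lipid droplets, fell from 2686 ± 266 FPKM to 828 ± 481 FPKM (by 1.91 ± 0.64, adjusted p = 0.0276), and this call was lost when PHX-24h-1, PHX-6h-1 or PHX-6h-2 was left out. Without PHX-24h-1 1 fall was called.

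In glucose metabolism, 2 of 23 tested genes rose and 1 fell. The glycogen synthase of liver, Gys2, went from 139.8, 123 and 113 FPKM to 43.6, 32.6 and 47.1 FPKM, a fall of 1.60 ± 0.25 (adjusted p = 0.00027) with the groups well apart. Pfkfb1, the bifunctional enzyme that sets fructose 2,6-bisphosphate, went from 5.04, 8.84 and 11.4 FPKM to 37.9, 25.1 and 28.9 FPKM, a rise of 1.79 ± 0.41 (adjusted p = 0.00338). Both calls held in every alternative. Glucose-6-phosphatase (G6pc) rose by 1.53 ± 0.56 (12.01, 59.5 and 69.5 against 195, 78.1 and 85.3 FPKM, adjusted p = 0.0417), which was lost under both other scalings and without PHX-24h-1, PHX-24h-3 or PHX-6h-1. Pck1, the gatekeeper of gluconeogenesis, was at 724 ± 171 FPKM and 969.8 ± 56.1 FPKM (adjusted p = 0.0977).

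Among enzymes of drug metabolism, 10 fell and 1 rose. Of 31 genes in the P450 list, made up of 30 cytochromes P450 and their reductase Por, 3 fell (Cyp2a5, Cyp2b10 and Cyp2f2) and 1 rose (Cyp2u1), around a median of -0.33. Cyp4a10 and Cyp4a14, which rose, and Cyp27a1, which fell, were counted with fatty acid oxidation and bile acid synthesis instead. At an adjusted p below 0.05 and any fold, 2 genes of the P450 list were higher and 5 lower, as were 2 and 7 of the conjugation enzymes. Over all 9879 genes 3323 were higher and 546 lower at this limit. With only the 6 samples in the fit, 7 genes of the P450 list and 10 conjugation enzymes were called lower and 0 higher. That fit called 191 of all genes lower and 571 higher. Cyp2a5, a coumarin hydroxylase with a near-identical copy in Cyp2a4, was at 708, 636 and 534 FPKM at 6 hours and at 70.3, 17.1 and 13 FPKM at 24 hours, and fell by 4.57 ± 0.83 (adjusted p = 0.000776). Cyp2b10, a target of the receptor Nr1i3, went from 28.4 ± 22.4 FPKM to 4.30 ± 2.57 FPKM (a fall of 2.29 ± 0.69, adjusted p = 0.0163), a call lost without PHX-24h-2 or PHX-6h-3. Cyp2f2 (457 ± 34.6 to 149 ± 92.9 FPKM, adjusted p = 0.0384) and Cyp2u1 (0.826 ± 0.557 to 3.37 ± 2.20 FPKM, adjusted p = 0.0184) did not hold when any of 5 and any of 4 samples was left out, PHX-24h-1 among the 4. Cyp1a2 (298, 360.4 and 264 against 168, 52.2 and 45.4 FPKM, adjusted p = 0.253) and Cyp3a11 (1442, 1610.1 and 1591 against 822, 718 and 471 FPKM, adjusted p = 0.0867) did not overlap between the times and did not pass. Among 34 tested conjugation enzymes 7 fell, all 7 under both other scalings: the glutathione S-transferases Gstm3, Gsta2, Gstm6, Gsta4, Gstt3 and Gstm1 and the sulfotransferase Sult5a1. Gstm6, with 104, 82.7 and 67.3 FPKM and then 29.995, 18.7 and 19.3 FPKM, fell by 1.87 ± 0.26 (adjusted p = 0.000123). Gstm3 went from 122, 104 and 63.3 FPKM to 27.1, 9.71 and 13.04 FPKM (a fall of 2.54 ± 0.61, adjusted p = 0.00486). Reads of the Gstm and Gsta families can be split between close paralogs, so the single values are uncertain.

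The urea cycle and amino acid breakdown were also lower. Of 25 genes, 5 fell (Sds, Ass1, Got1, Asl and Tat), 4 of them under both other scalings, 14 did not overlap and were lower, and the median was -0.77 (-1.02 relative to all genes). On the recovered reads 10 were called lower. The call of Tat (-1.13) was lost without PHX-24h-1 (-0.81), PHX-6h-1 or PHX-6h-3 and after quantile normalization. Sds, serine dehydratase, was at 474, 477 and 569 FPKM at 6 hours and at 114, 205 and 218 FPKM at 24 hours, and fell by 1.54 ± 0.26 (adjusted p = 0.000458). Argininosuccinate synthase (Ass1) had 1919, 2378 and 1438 FPKM and then 769, 517 and 687 FPKM, and fell by 1.53 ± 0.29 (adjusted p = 0.00099). Got1, the cytosolic aspartate aminotransferase, fell by 1.22 ± 0.22 (401, 313 and 406 against 134, 163 and 182 FPKM, adjusted p = 0.000725). All 3 genes were well separated. Their levels in Normal liver differed, at 184 ± 56.7 FPKM for Sds, 1943 ± 438 FPKM for Ass1 and 102 ± 30.5 FPKM for Got1. Cps1, the first enzyme of the cycle, was at 590.3 ± 52.0 FPKM and 558 ± 108 FPKM (adjusted p = 0.816). The 24-hour samples also had the lower sum of hepatocyte markers, and its part in these falls was not tested.

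Secreted proteins of the hepatocyte shifted less. Albumin (Alb) was at 32345, 26816 and 34935 FPKM at 6 hours and at 21675, 18988 and 24408 FPKM at 24 hours, without overlap and without passing the test (-0.53 ± 0.28, adjusted p = 0.148). Transthyretin (Ttr) was lower by less than 2-fold (3197 ± 434 against 1782 ± 374 FPKM, adjusted p = 0.0255). Of 33 plasma protein and coagulation genes 11 did not overlap and were lower, and the median was -0.18. On the recovered reads 2 were called lower. Of 20 major urinary proteins 1, Mup1, was called lower (1068, 139.7 and 226 against 141, 82.5 and 85.6 FPKM, adjusted p = 0.0339). Its groups overlapped, PHX-6h-1 was far above the rest, and the family is nearly identical in sequence, so this value is uncertain.

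In bile acid synthesis and transport, Cyp27a1, an enzyme of the acidic pathway, fell (193 ± 1.77 to 74.6 ± 10.2 FPKM, by 1.37 ± 0.52, adjusted p = 0.0486), a call lost when any single sample was left out. The bile acid receptor Nr1h4 rose (10.4, 17.8 and 45.2 to 69.5, 56.9 and 48.0 FPKM, 1.45 ± 0.43, adjusted p = 0.0147), a call lost without PHX-24h-1 or PHX-6h-1. Cyp7a1, the rate-limiting enzyme of bile acid synthesis, did not pass the filter, because 1 sample alone was above 1 FPKM. It was at 0.327, 0.694 and 0.336 FPKM at 6 hours and at 20.2, 0.0462 and 0.0116 FPKM at 24 hours, the high value being that of PHX-24h-1, and at 28.4 ± 15.9 FPKM in Normal liver.

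Transcription factors of liver identity were higher at 24 hours. Of 19 genes, 9 rose (among them Onecut1, Nr1i3, Nr1h3, Onecut2, Foxa2, Cebpa, Foxa3 and Rxra) and 1 fell (Cebpd), with a median of 0.78, or 0.53 above all genes. In all, 3 rises and the fall held under both other scalings, and the rises numbered 6 without PHX-24h-1 and 5 without PHX-6h-1. Nr1i3 (CAR), a sensor of foreign compounds, was at 7.84, 18.8 and 19.2 FPKM at 6 hours and at 49.8, 33.2 and 50.8 FPKM at 24 hours, rising by 1.56 ± 0.29 (adjusted p = 0.00095). Nr1h3 (LXR alpha), a sensor of oxysterols, was at 18.5, 32.1 and 36.7 FPKM and then at 92.0, 76.7 and 74.0 FPKM, a rise of 1.49 ± 0.26 (adjusted p = 0.000566). Neither overlapped, and both calls held in every alternative. Cebpa, which supports the resting, differentiated hepatocyte, went from 62.0, 32.0 and 34.0 FPKM to 131, 99.6 and 80.8 FPKM (1.30 ± 0.35, adjusted p = 0.00924), against 217 ± 31.6 FPKM in Normal liver. The related Cebpd, an acute phase factor, went from 22.5, 23.1 and 29.1 FPKM to 5.85, 19.3 and 12.9 FPKM (a fall of 1.05 ± 0.36, adjusted p = 0.0292), a call lost when PHX-24h-1 or any PHX-6h sample was left out. Onecut1 showed the largest rise of the list (2.36 ± 0.79, adjusted p = 0.0277), on 0.920, 1.09 and 2.75 FPKM and then 35.5, 5.14 and 8.11 FPKM, which did not hold without PHX-24h-1, PHX-6h-1 or PHX-6h-2. Hnf4a, the central factor of hepatocyte identity, was at 171 ± 24.8 FPKM and 208 ± 24.5 FPKM (adjusted p = 0.237).

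Clock genes were compared because an interval of 18 hours can also move the time of day, which is not given for these livers. Of 18 tested, 2 rose, and on the recovered reads 3 were called lower. Nr1d1 (Rev-erb alpha), a repressor of the clock loop, was at 4.04, 3.998 and 1.51 FPKM at 6 hours and at 7.88, 10.1 and 11.8 FPKM at 24 hours (1.44 ± 0.27, adjusted p = 0.000985). Clock itself went from 3.24 ± 1.37 FPKM to 8.16 ± 0.254 FPKM (1.17 ± 0.20, adjusted p = 0.000469), a call lost after quantile normalization and without PHX-6h-1. Dbp, an output gene of the clock, had 1.58, 1.75 and 1.40 FPKM and then 15.2, 2.41 and 6.49 FPKM and did not pass (adjusted p = 0.0553). Per1 was at 8.44 ± 0.889 FPKM and 6.06 ± 0.283 FPKM (adjusted p = 0.0918). Normal liver held 42.5 ± 4.58 FPKM of Nr1d1 and 53.6 ± 23.9 FPKM of Dbp. Time after PHX and time of day cannot be told apart in these samples.

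Of the growth factors and their receptors, 3 of 20 rose and 1 fell. Erbb3, a receptor partner of the EGF receptor family, was at 1.34, 4.23 and 4.34 FPKM at 6 hours and at 10.1, 13.7 and 13.9 FPKM at 24 hours, a rise of 1.74 ± 0.30 (adjusted p = 0.000538). Klb, the co-receptor of FGF15/19 and FGF21, rose by 1.40 ± 0.23 (0.944, 0.941 and 0.636 against 5.92, 3.17 and 2.89 FPKM, adjusted p = 0.000368). It was below 1 FPKM in every PHX-6h sample and passed the filter only through PHX-24h, so its direction and lack of overlap follow from the filter. Without any filter 3 of the 29 genes of the list rose, against 3.4% of the 16455 genes with reads. The calls of Erbb3 and Klb held in every alternative. Tgfa, a ligand of the EGF receptor, went from 3.67, 3.38 and 1.87 FPKM to 7.11, 8.44 and 8.62 FPKM (1.22 ± 0.18, adjusted p = 0.000249), a call lost after quantile normalization and without PHX-6h-3. Gdf15, a stress hormone, went from 89.2, 65.7 and 34.5 FPKM to 8.65, 6.70 and 8.51 FPKM, a fall of 2.75 ± 1.00 (adjusted p = 0.0408) that was lost when any of 5 samples, PHX-24h-1 among them, was left out. Of 18 genes of the activin and TGF-beta pathways, Inhbc, an activin subunit made in liver, rose by 1.52 ± 0.31 (7.57, 15.2 and 17.3 against 41.5, 34.5 and 38.6 FPKM, adjusted p = 0.00184). The pathway targets Id3 (187 ± 28.6 to 82.2 ± 26.8 FPKM, adjusted p = 0.00184) and Id1 (35.6 ± 6.93 to 15.9 ± 7.74 FPKM, adjusted p = 0.0435) fell, with calls lost without PHX-24h-2 for Id3 and without any of 5 samples, PHX-24h-1 among them, for Id1. Igfbp1, the largest member by difference among 12 genes of the growth hormone and IGF axis, had 1701, 1017 and 1131 FPKM and then 42.0, 1006 and 329.7 FPKM (-2.37 ± 1.19, adjusted p = 0.127). In that list no gene passed in limma, and 1 was called higher on the recovered reads. At an unadjusted p under 0.05, 3 were higher and 2 lower, against 4792 of all 9879 genes in either direction. With an adjusted p below 0.05 at any fold, 2 were higher and 2 lower, against 3323 and 546 of all genes.

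Iron and metal handling genes gave 2 falls among 16, and 5 on the recovered reads. Hamp2, a hepcidin-like peptide, went from 32.9, 7.69 and 32.0 FPKM to 0.439, 2.48 and 2.03 FPKM, a fall of 3.11 ± 0.73 (adjusted p = 0.00396) that held in every alternative. Its paralog Hamp (hepcidin), counted with the acute phase genes, was at 1439, 1785 and 3093 FPKM and then at 407, 997 and 1114 FPKM. Those groups did not overlap, but the difference of -1.38 ± 0.77 did not pass. Reads can be shared between these paralogs, so the value of Hamp2 is uncertain. The zinc and iron importer Slc39a14 went from 275, 155 and 209 FPKM to 59.3, 101 and 113 FPKM (a fall of 1.23 ± 0.21, adjusted p = 0.00059), a call lost without PHX-24h-1, where the difference was -0.95. The metallothioneins, which bind zinc and copper, did not pass. Mt1 was at 6352, 5530.5 and 5028 FPKM and then at 1113, 3388 and 3534 FPKM (adjusted p = 0.0527), against 16.5 ± 4.04 FPKM. Mt2 was at 3698 ± 279 FPKM and 2126 ± 1053 FPKM (adjusted p = 0.12), against 3.73 ± 0.839 FPKM.

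Cytoskeletal genes moved both ways. Of 29 genes 4 rose (Tubb5, Tuba4a, Tuba1b and Tpm1) and 1 fell (Actg1), and 3 rises and the fall held under both other scalings. Tubb5, a beta-tubulin, was at 13.7, 15.6 and 12.8 FPKM at 6 hours and at 63.5, 36.6 and 39.6 FPKM at 24 hours, rising by 1.62 ± 0.30 (adjusted p = 0.00087). The alpha-tubulin Tuba1b rose by 1.44 ± 0.19 (23.7, 22.1 and 13.6 against 64.9, 44.4 and 54.3 FPKM, adjusted p = 9.3e-05). Cytoplasmic actin gamma (Actg1) was at 945, 706 and 353 FPKM and then at 147, 81.4 and 89.8 FPKM, a fall of 2.58 ± 0.43 (adjusted p = 0.000437). Its paralog Actb was lower by just under 2-fold (446 ± 38.2 against 233 ± 32.8 FPKM, -0.94 ± 0.17, adjusted p = 0.000808). Reads can be shared among tubulin and actin paralogs, so the single values are uncertain. Of 28 genes of nuclear transport and RNA processing, the exportin Xpo1 rose, from 2.39, 3.19 and 3.46 FPKM to 18.6, 12.05 and 11.9 FPKM (1.90 ± 0.18, adjusted p = 9.8e-06).

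**Figure D4:**
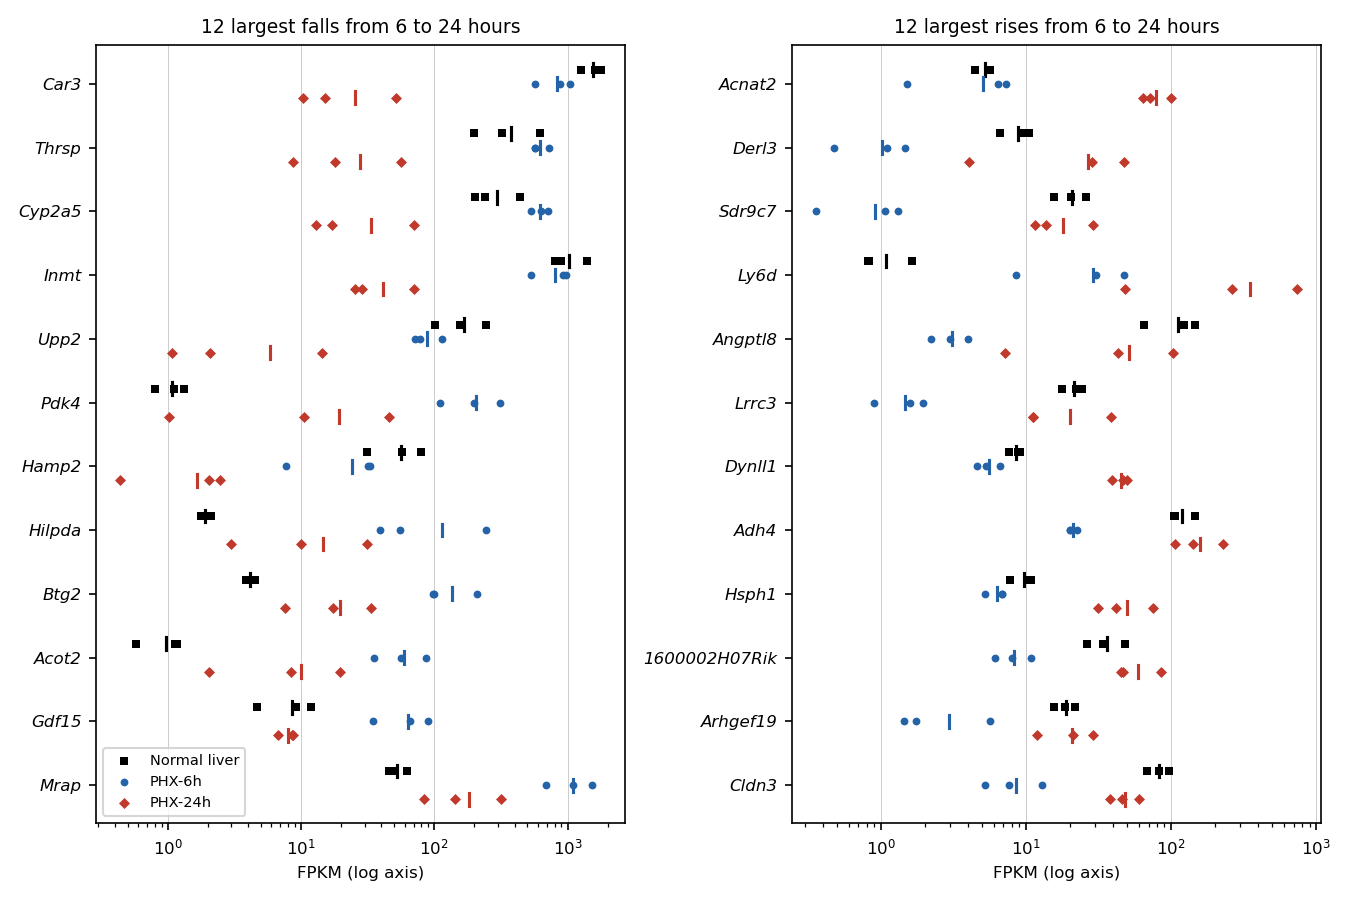
FPKM (log axis) of the 12 genes with the largest falls (left) and the 12 with the largest rises (right) among those that passed the test, with 1 point a sample for Normal liver, PHX-6h and PHX-24h and a bar at each mean. Car3 lies lowest at 24 hours relative to 6 hours (833 ± 239 to 25.6 ± 22.3 FPKM) and Acnat2 highest (5.06 ± 3.09 to 78.8 ± 18.9 FPKM).

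The largest rise of all was that of Acnat2, an acyltransferase that couples acyl-CoA to amino acids, with 1.52, 7.24 and 6.42 FPKM at 6 hours and 64.3, 71.9 and 100.2 FPKM at 24 hours (3.87 ± 0.47, adjusted p = 5.69e-05). In Normal liver it was at 5.23 ± 0.672 FPKM. Dynll1, a light chain of dynein, had the smallest error among the 12 largest rises, with 4.61, 6.65 and 5.33 FPKM and then 49.5, 46.9 and 39.2 FPKM (2.83 ± 0.16, adjusted p = 8.06e-08). Normal liver held 8.48 ± 0.753 FPKM of it. Several other large rises came from genes that were low at 6 hours relative to Normal liver. Adh4, an alcohol dehydrogenase, went from 20.1, 20.3 and 22.5 FPKM to 229, 142 and 107 FPKM (2.80 ± 0.58, adjusted p = 0.00177), with 119 ± 23.8 FPKM in Normal liver. Cldn3, a claudin of hepatocyte tight junctions, went from 5.25, 12.8 and 7.59 FPKM to 60.1, 38.1 and 46.2 FPKM (2.42 ± 0.23, adjusted p = 9.8e-06), with 82.7 ± 14.8 FPKM in Normal liver. The short-chain dehydrogenase gene Sdr9c7 rose by 3.25 ± 0.54 to 18.1 ± 9.61 FPKM, with 20.6 ± 5.18 FPKM in Normal liver. Lrrc3, Arhgef19 and 1600002H07Rik rose by 2.89, 2.54 and 2.66. Angptl8, a hepatocyte hormone that acts on lipoprotein lipase, spread widely at 24 hours (104, 7.19 and 42.8 FPKM against 3.02, 3.97 and 2.22 FPKM, adjusted p = 0.0169) and did not hold without PHX-24h-1 or PHX-24h-3. Ly6d did so too, with 30.5, 47.1 and 8.61 FPKM and then 48.2, 261 and 736 FPKM (adjusted p = 0.0232), a call lost without PHX-24h-2, PHX-24h-3 or PHX-6h-3 and under both other scalings.

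Among the largest falls, Car3, a carbonic anhydrase abundant in liver, was at 881, 573 and 1044 FPKM at 6 hours and at 51.2, 15.1 and 10.4 FPKM at 24 hours. It fell by 5.25 ± 1.58 (adjusted p = 0.0161), a call lost on the recovered reads and without PHX-24h-3, and Normal liver held 1547 ± 269 FPKM. Inmt, an indolethylamine methyltransferase, fell by 4.35 ± 1.39 (965, 527 and 932 against 70.0, 28.5 and 25.5 FPKM, adjusted p = 0.0216), a call lost when any of 4 samples was left out and on the recovered reads. The uridine phosphorylase Upp2 fell by 4.24 ± 1.20 (72.0, 77.9 and 115 against 14.4, 1.08 and 2.07 FPKM, adjusted p = 0.0117), a call lost on the recovered reads. For these genes the groups did not overlap, but the spread that enters the test comes from all 18 liver samples. Mrap and Hilpda, also among the largest falls, were low in Normal liver. Mrap, an accessory protein of melanocortin receptors, went from 1513, 1099 and 689 FPKM to 83.5, 142 and 316 FPKM (by 2.74 ± 0.54, adjusted p = 0.00131), with 52.7 ± 8.51 FPKM in Normal liver. Hilpda, a lipid droplet protein, went from 245, 55.7 and 39.4 FPKM to 3.00, 31.0 and 10.1 FPKM (by 2.88 ± 1.00, adjusted p = 0.0326), with 1.90 ± 0.192 FPKM in Normal liver, and its call was lost without PHX-24h-1, PHX-24h-3 or PHX-6h-1. The comparisons with Normal liver share the PHX-6h and PHX-24h samples with the comparison between them, so their levels are given side by side, with no test.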

How the data were processed

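Liver RNA was sequenced by the study. The authors deposited FPKM values per gene for 18 liver samples in 1 table, and the submitters' processing notes name TopHat 1.4.1, Cufflinks 1.3.0 and mm10. Their counting and annotation settings are not given in the sources used here. FPKM removes depth and length but not composition, so a few abundant genes can shift all others. The 20 most abundant genes held 23.7 to 27.7% of the reads at the 2 times. No test, count or list of the study was used, and the tables of cultured cells were not used here.

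Values were tested as log2(FPKM + 1) in limma 3.58.1 (R 4.3.3) with a trended prior variance, with the 18 samples in 6 groups sharing 1 spread per gene. The Benjamini-Hochberg adjustment ran over the 9879 genes, and the adjusted p-values in the text come from this test. Calls needed an adjusted p below 0.05 and a difference of 2-fold or more. The pseudocount understates changes of low genes. Means are given ± SD over 3 samples and differences ± SE. Read numbers were recovered from FPKM steps for 15256 rows. On simulated data of 9879 genes for this comparison, 90 of 100 genes changed by 1.5 and 98 of 100 changed by 3 on the log2 scale were called, and 6 of 9679 unchanged ones. The draws were normal and independent per gene, with no sample set apart and no shift of all genes. The simulation thus gives no error rate for data that hold these.

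Alternatives were pseudocount, filter, fold threshold, quantile normalization, limma voom with trimmed mean of M values factors on the recovered reads, only the 6 samples in the fit, a replicate block and leaving out each sample. "Held in every alternative" refers to these, fold thresholds apart. A gene that did not reach the filter of 5 FPKM is judged on the other settings. Named genes were the key genes of each list, up to 3 called rises and 3 called falls with the largest change per list and the 12 largest of each over all genes; not all are printed, and a few list members, kept in the counts, are not reported here by name. Other called genes are named where a count is given. Genes and lists were chosen with earlier results of these data known, so no list is independent evidence. Cyp7a1, Mki67, Aurka, E2f1 and the markers were named after their values were seen. Promoters are RefSeq windows (GRCm38.p6, 32851 windows of 27025 symbols, 250 bases before to 50 after the start), matched by symbol. Plots and counts were made with Python 3.11.15, numpy 2.4.6, pandas 2.3.3 and matplotlib 3.10.9.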

Additional observations from a re-analysis of the deposited data

How the results depend on the processing

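The 567 rises became 1030 with a pseudocount of 0.1, 277 after quantile normalization, 3323 with no fold threshold, 1961 at 1.5-fold and 42 at 4-fold. The 167 falls became 253 after quantile normalization, 474 in limma voom on the recovered reads, 546 with no fold threshold, 370 at 1.5-fold and 35 at 4-fold. Leaving out 1 sample at a time gave 433 to 735 rises, 119 to 192 falls and 88 to 135 called list members (119 with all samples). No call among the named genes turned its direction. Of the 100 named genes called, 49 kept the call without each of the 6 samples and in 7 other settings, 46 lost it without at least 1 sample and 5 lost it in another setting only; the cause was not tested. The numbers lost were 31 without PHX-6h-1, 24 without PHX-24h-1, 25 in voom, 21 after quantile normalization and 14 without a filter. With a filter of 5 FPKM, 20 named results gave no value. With a lone pair left in a group, its spread is shared with the other groups.

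With the replicate number as a block, 565 genes rose, 167 fell and 117 list members were called. Deviations of same-numbered samples from their group means correlated at -0.14, -0.31 and -0.15, so the numbers do not pair the samples. The block changed the calls of Saa3, E2f8 and Id1 among the named genes. Each sample had at least 52072853 reads on genes, and genes under about 1 FPKM, most mitotic genes among them, were left out by the filter and tested only without it.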

Other observations

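Genes of immune cells gave few calls. Of 10 Kupffer cell markers, the scavenger receptor Marco rose (4.91, 11.9 and 6.93 FPKM at 6 hours, 29.5, 34.4 and 30.6 FPKM at 24 hours, log2 difference 1.94 ± 0.50) and so did the complement receptor Vsig4 (1.01 ± 0.32), the latter not under both other scalings. The summed Kupffer markers were at 97.5 to 193 FPKM at 6 hours, at 215 to 226 FPKM at 24 hours and at 261 to 399 FPKM in Normal liver. Recruited monocyte markers summed to 35.4 to 49.7 FPKM and then to 59.8 to 89.3 FPKM. No chemokine or cytokine gene of 16 tested passed in limma, and 2 were called lower on the recovered reads. At an unadjusted p under 0.05, 3 were higher and 2 lower, against 4792 of all 9879 genes in either direction. With an adjusted p below 0.05 at any fold, 3 were higher and 1 lower, against 3323 and 546 of all genes. Of 24 interferon response genes, 3 were called higher (Irf1, Igtp and Psmb9), none of them under both other scalings, and 2 were called lower on the recovered reads. The calls of Igtp (1.21, and 1.02 without PHX-24h-1) and Psmb9 (1.03, and 0.75) were lost without PHX-24h-1. Irf1, an interferon-induced transcription factor, was at 3.68 ± 1.30 FPKM and 9.66 ± 1.51 FPKM, with 15.1 ± 1.89 FPKM in Normal liver.

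Oxidative phosphorylation genes lay close together, between -0.53 and 0.54 around a median of -0.05, or -0.29 relative to that of all genes. Of the 35, 29 lay below the median of all genes and 6 above it. The list median was -0.13 after quantile normalization and -0.41 on the recovered reads, against 0.01 and -0.06 for all genes. None of the 35 passed in limma or on the recovered reads. At an unadjusted p under 0.05, 3 were higher and 8 lower, against 4792 of all 9879 genes in either direction. With an adjusted p below 0.05 at any fold, 2 were higher and 8 lower, against 3323 and 546 of all genes. The summed markers of cholangiocytes were at 39.9 to 81.8 FPKM at 6 hours and 37.9 to 197 FPKM at 24 hours, those of sinusoidal endothelial cells at 84.5 to 108 FPKM and 110.1 to 126 FPKM, those of stellate cells at 133 to 166 FPKM and 132 to 196 FPKM, and those of red blood cells at 38.6 to 149 FPKM and 26.8 to 47.3 FPKM. Of the stellate markers Lrat, which stores vitamin A, rose (1.05 ± 0.29).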
